A study of Mus musculus with 7 samples.

Results

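The genes described here are 10 genes of cholesterol efflux and lipoprotein remodelling, namely Abca1, Abcg1, Lcat, Pltp, Scarb1, Lipc, Lpl, Mttp, Mylip and Soat2. They were taken by symbol from 21536 protein-coding mouse genes with a known strand. Their binding data are the ChIP-seq peaks whose midpoint lies inside the gene or within 50 kb of it, and 559 of the 245004 peaks in the 6 lists met this rule. The window has a sharp edge: the outermost peak inside it was at Soat2, 49.89 kb from the gene, in the RARα control list (upper 26.4% of that list by score), and the nearest peak outside it was at Lcat, 50.07 kb from the gene, in the RARβ RA list (upper 54.2%).

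Livers of male C57BL/6 mice aged 3 months were profiled with antibodies against the retinoic acid receptors RARα and RARβ and the retinoid X receptor RXRα. The wild type animals had been on the normal diet (called control) or on the retinoic acid (RA) diet, for 1 day by the labels, while the study's methods describe a longer treatment, so the duration is not settled here. Each combination of receptor and diet was 1 library, and 1 input library of total chromatin was not used here. Because there is 1 library in each group and the depth behind each list is unknown, all differences between diets or receptors describe these libraries, have no replicate check and carry no test.

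Cholesterol leaves cells through ABC transporters that load it onto apolipoprotein A-I and onto nascent high density lipoprotein (HDL). In plasma it is esterified, exchanged and remodelled by enzymes and transfer proteins, and the liver takes HDL cholesterol back and secretes lipid anew in very low density lipoprotein (VLDL). Several of these genes are textbook targets of the liver X receptors, which bind DNA together with RXRα at direct repeats of a short half-site, as do the RARs.

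All 10 genes had at least 1 peak of every receptor under both diets in the 50 kb window. For comparison, 83.7% of all coding genes had such a peak in the RARα control list and 84.8% in the RARα RA list, 70.2% and 77.8% in the RARβ lists, and 83.7% and 84.3% in the RXRα lists. Scarb1 and Abca1 carried the most peaks, and Mylip, Lpl and Mttp the fewest. The RARβ peaks at the 10 genes numbered 37 under the control diet and 78 under RA, while the RARα peaks numbered 80 and 88 and the RXRα peaks 138 and 138. The starts of Abca1, Lcat, Scarb1 and Mylip each held a RARα peak in the upper 10% of its list under both diets. The best RXRα peak lay more than 10 kb from the start at every gene except Lcat, under both diets.

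**Figure D1:**
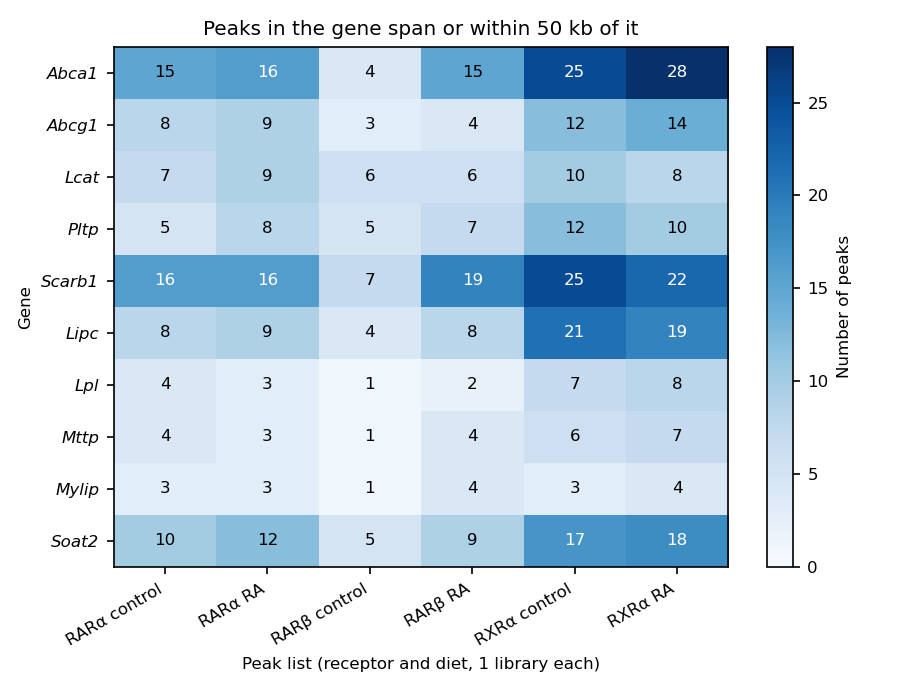
Number of peaks with a midpoint inside each gene or within 50 kb of it (cell value and colour) for the 10 genes (rows) in the 6 peak lists (columns, 1 library each). Abca1 and Scarb1 each reach 25 RXRα peaks under the control diet, whereas Mylip has 3, and the RARβ control column holds the lowest or joint lowest number in every row.

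Peaks are ordered here by the score that the peak caller gave them, which is a multiple of the negative log10 of the p-value of the peak and is not comparable between lists. A peak in the "upper 5%" is one whose score is reached by at most 5% of the peaks of its own list. Because the lists differ in length, a percentage can differ between lists through the other peaks of a list as well as through the peak itself. Positions are given in kb from the outermost annotated start of the gene, positive in the direction of transcription. A region is a set of overlapping peaks from the 6 lists, merged, and the 559 peaks formed 176 regions.

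The promoters of Abca1 and Mttp are shown because peaks of all 6 lists overlapped their 300 bp promoter windows (250 bases before to 50 after an annotated start), which held for 16.7% of the 32851 promoter windows of RefSeq, with 59.5% overlapped in no list. The promoter at the inner start of Lipc is shown because 4 receptor half-sites lie in it, and it was chosen after its values were seen. The 250 bases before each start are printed 5′ to 3′ on the strand of the gene, from RefSeq on GRCm38.p6, and capitals mark the half-sites AGGTCA and AGTTCA, which read TGACCT and TGAACT on the opposite strand.
Abca1, chr4:53159896-53160145, minus strand: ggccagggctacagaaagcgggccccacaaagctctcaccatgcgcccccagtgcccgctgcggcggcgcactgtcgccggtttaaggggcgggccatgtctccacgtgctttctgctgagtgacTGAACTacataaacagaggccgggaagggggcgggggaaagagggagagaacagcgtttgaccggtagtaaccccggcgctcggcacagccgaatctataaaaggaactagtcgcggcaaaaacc
Mttp, chr3:138143419-138143668, minus strand: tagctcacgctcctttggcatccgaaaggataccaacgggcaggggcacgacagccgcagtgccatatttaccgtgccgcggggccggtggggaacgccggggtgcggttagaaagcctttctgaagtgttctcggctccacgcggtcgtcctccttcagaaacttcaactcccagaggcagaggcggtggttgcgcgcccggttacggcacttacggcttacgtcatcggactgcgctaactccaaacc
Lipc inner start, chr9:70934809-70935058, minus strand: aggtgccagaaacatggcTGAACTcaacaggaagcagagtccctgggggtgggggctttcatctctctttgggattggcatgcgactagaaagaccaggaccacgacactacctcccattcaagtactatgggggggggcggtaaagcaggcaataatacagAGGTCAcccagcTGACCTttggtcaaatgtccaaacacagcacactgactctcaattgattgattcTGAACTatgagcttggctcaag
Positions are counted from the annotated start, negative before it. Abca1 holds 1 half-site, at -125 to -120 from a start that lies 93 bp inside the outermost start. Mttp holds none. The inner Lipc promoter holds AGGTCA on the strand of the gene at -88 to -83, TGACCT at -76 to -71, and TGAACT at -22 to -17 and at -232 to -227. At least 1 half-site was found in 27.7% of all promoter windows (AGGTCA in 16.3% and AGTTCA in 14.0%, both strands counted). A direct repeat of these half-sites with 0 to 8 bases between them was found in 0.426% of windows and in none of the 7 windows of the 6 genes with a sequence, Abca1, Lcat, Pltp, Lipc, Mttp and Mylip. Only exact copies of these half-sites were searched, so half-sites that differ by a base, and direct repeats of them, were not looked for. The lack of a direct repeat therefore does not show that a promoter, such as that of Abca1, has no receptor element. A match or its absence describes these letters in these windows only.

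Of both efflux transporters, Abca1, which passes phospholipid and cholesterol to lipid-poor apolipoprotein A-I, lies at chr4:53030789-53159988 on the minus strand. On the control diet it had 15 RARα, 4 RARβ and 25 RXRα peaks, and with RA it had 16, 15 and 28. Its start was called for all 3 receptors under both diets. The start peak stood in the upper 3.03% of the RARα control list and the upper 1.64% of the RARα RA list. It stood in the upper 40.4% and 17.4% of the RARβ lists and the upper 3.58% and 6.83% of the RXRα lists. Under RA, it was thus ranked higher than under the control diet for both RARs and lower for RXRα. The highest RXRα peak of the gene was elsewhere, inside the gene at 79.5 kb (chr4:53080102-53080885), in the upper 1.86% under the control diet and the upper 1.24% under RA. The same region was called in the other 4 lists too, at lower ranks, between the upper 48.5% (RARβ RA) and the upper 87.3% (RARα control).

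Upstream of Abca1, regions at -26.4 kb and -36.5 kb held RXRα under both diets, in the upper 30.7% and 6.94% at the former and the upper 10.8% and 6.30% at the latter. RARβ was called at both under RA only, in the upper 10.2% and 15.9%. RARα was called under RA only at the former (upper 36.7%), and under both diets at the latter (upper 70.4% and 33.0%). Both regions were therefore ranked higher under RA than under the control diet wherever a receptor was called under both. In all, 11 of the 32 regions of Abca1 (34.4%) were called for RARβ under RA and not under the control diet, and none the other way round. Over the genome these shares were 19.8% and 3.60% of regions. The whole RARβ list was longer under RA (29467 peaks) than under the control diet (14968 peaks).

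Abcg1, which exports cholesterol to mature HDL particles, lies at chr17:31057694-31117984 on the plus strand. Its peaks numbered 8 (control diet) and 9 (RA) for RARα, 3 and 4 for RARβ, and 12 and 14 for RXRα. At its start (0.0150 kb) RARα was called, in the upper 48.1% under the control diet and the upper 85.0% under RA, and RARβ and RXRα were not called within 1 kb. Of its 20 regions, 1 was called for RARβ under RA and not under the control diet, and 3 under both. The 2 regions called in all 6 lists lay beyond the 3′ end, at 81.0 kb and 95.1 kb, where the nearest coding start was that of Tff2, a secreted trefoil peptide. The region at 81.0 kb held the highest RARα peak of the gene (upper 7.41% and 11.5%), and the one at 95.1 kb its highest RXRα peak (upper 5.47% and 7.76%). Upstream, at -17.9 kb, RXRα was called in the upper 8.19% and 25.6%, with RARβ under both diets (upper 86.7% and 45.5%) and RARα under RA (upper 65.2%).

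**Figure D2:**
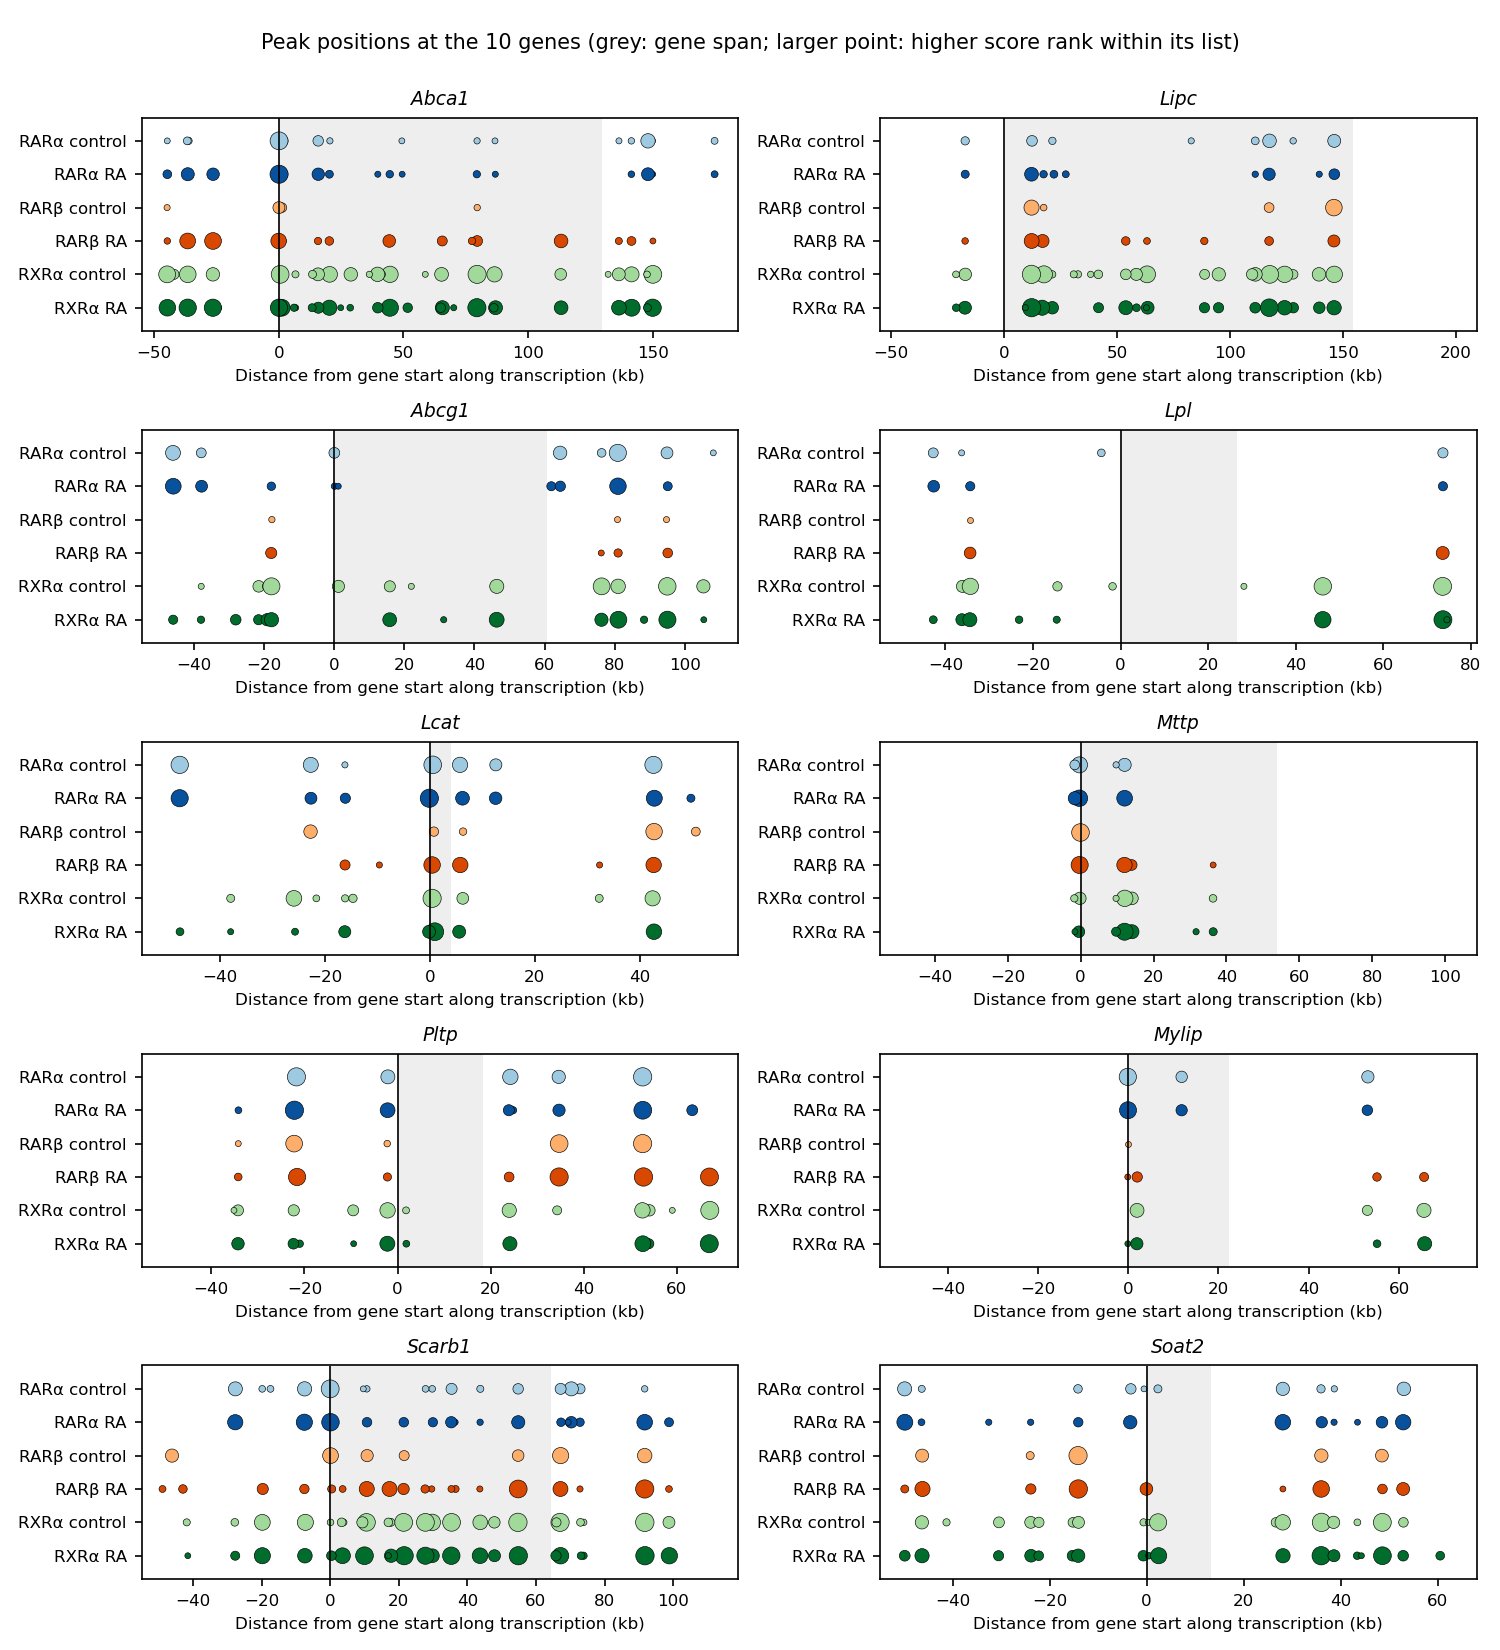
Map of the called peaks at the 10 genes, with the distance from the gene start in kb on the horizontal axis (positive in the direction of transcription) and 1 row for each of the 6 peak lists. The RXRα rows are filled along Abca1, Scarb1 and Lipc, while no row has a peak inside Lpl.

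Among the genes of plasma remodelling, Lcat, the enzyme that esterifies cholesterol on HDL, is the shortest of the 10 genes (3.85 kb, chr8:105939551-105943402, minus strand). It lies among many others, with 6 other coding starts in its window. Its best peak within 1 kb of the start ranked high in 4 lists. For RARα it stood in the upper 4.43% on the control diet and the upper 0.993% under RA. For RXRα it stood in the upper 1.19% and 3.49%. For RARβ it stood in the upper 58.1% under the control diet and the upper 11.6% under RA. As at Abca1, the rank of this best peak was higher under RA for both RARs and lower for RXRα. Under RA, however, the best RARα peak (-0.0940 kb) and the best RXRα peak (0.947 kb, score 782) did not overlap. The RXRα RA peak over the start itself (-0.144 kb) had a lower score of 219. On the control diet, 1 wide peak of each of these receptors covered both places. The order of the diets for RXRα thus compares a peak over the start with a peak beside it. Lcat was the 1 gene whose number of RARβ peaks was equal under both diets (6 and 6), with 7 and 9 RARα peaks and 10 and 8 RXRα peaks. Of the RARβ peaks, 1 was shared between diets by an overlap of 25% of each width. The RARβ control peaks at 0.781 kb and 6.34 kb lay inside wider RA peaks and missed that limit. By distance, few of these peaks belonged to Lcat: the nearest coding start was that of Lcat for 1 peak in each control list and 2 in each RA list. The other regions called in all 6 lists were at the starts of Pskh1 (42.7 kb) and Psmb10 (5.62 kb).

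Pltp, which transfers phospholipid between lipoproteins, lies at chr2:164839518-164857708 on the minus strand. It had no peak within 1 kb of its start in any list. Its nearest region in all 6 lists was at -2.17 kb, in the upper 27.1% and 21.9% for RARα, the upper 83.3% and 67.4% for RARβ and the upper 18.5% and 20.7% for RXRα. The highest-ranked peaks of its window belonged to neighbours by distance. The region at 52.7 kb, 0.0970 kb from the start of Zswim3, stood in the upper 0.526% and 3.43% for RARα, the upper 0.808% and 0.238% for RARβ and the upper 18.2% and 15.7% for RXRα. The region at -21.6 kb, 0.0610 kb from the start of Pcif1, stood in the upper 1.53% and 0.670% for RARα, the upper 10.1% and 6.81% for RARβ and the upper 45.1% and 48.5% for RXRα. A further region at 67.0 kb was bound by RXRα under both diets (upper 2.15% and 1.99%) and by RARβ under RA only (upper 2.54%, score 374), without RARα. This was the highest-ranked of all peaks at the 10 genes that had no overlap in the other diet.

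Lipc, the hepatic lipase, which hydrolyses HDL lipid, is the longest of the 10 genes (154 kb, chr9:70798128-70952221, minus strand), and no other coding start lies in its window. On the control diet it had 8 RARα, 4 RARβ and 21 RXRα peaks, and with RA 9, 8 and 19, nearly all inside the gene (19 and 17 for RXRα). At its outermost start, only the RXRα RA list had a peak within 10 kb (at 9.36 kb, upper 89.4%). RefSeq also gives an inner start, 17.4 kb inside the gene, whose promoter is printed above. A region there was called in 5 lists, without RARα under the control diet: RARα stood in the upper 73.9% under RA, RARβ in the upper 82.6% and 33.4%, and RXRα in the upper 8.08% and 20%. Within 10 kb of the inner start, all 6 lists had a peak. Between both starts, the region at 12.2 kb (chr9:70939288-70940759) was called in all 6 lists and held the highest RXRα peak of the gene, in the upper 0.609% and 0.896%. RARα stood there in the upper 48.9% and 28.5%, and RARβ in the upper 20.1% and 21.4%. Near the 3′ end, the region at 146 kb gave the highest RARβ control peak of the gene (upper 11%), against the upper 39.9% under RA.

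Lpl, lipoprotein lipase, which releases fatty acids from triglyceride in plasma, lies at chr8:68880555-68906932 on the plus strand. No list had a peak inside the gene or within 1 kb of its start. All of its peaks were in the flanks, with 4 and 3 for RARα, 1 and 2 for RARβ, and 7 and 8 for RXRα. Beyond the 3′ end, the region at 73.6 kb stood in the upper 2.75% and 2.54% for RXRα, with RARα in the upper 52.2% and 59.5% and RARβ under RA in the upper 33.6%. The region at 46.2 kb was called for RXRα alone, in the upper 5.68% and 11.7%. Upstream, the region at -34.4 kb held the only RARβ peak under the control diet (upper 94.2%), and there RARβ stood in the upper 41.9% under RA and RXRα in the upper 12.5% and 26.8%. Lpl had no region in all 6 lists.

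Scarb1 encodes SR-BI, the receptor through which the liver takes up HDL cholesteryl esters, and lies at chr5:125277087-125341094 on the minus strand. RARα had 16 peaks there with either diet, RARβ 7 without RA and 19 with it, and RXRα 25 and 22. The difference of 12 RARβ peaks was the largest of the 10 genes, next to 11 at Abca1. Of its 27 regions, 13 (48.1%) were called for RARβ under RA and not under the control diet, 1 (3.70%) the other way round and 6 under both. Over the genome, 19.8% of regions were called for RARβ under RA only and 3.60% under the control diet only. RXRα was called under both diets at 11 of those 13, close to the genome share of 83.3% for regions with RARβ under RA only.

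The highest-ranked peak of all 559 was at 91.8 kb from the start of Scarb1, beyond its 3′ end (chr5:125248891-125249730). By RXRα score it was number 20 of 61128 peaks under the control diet (score 2173) and number 31 of 59624 under RA (score 2012). At the same place RARβ stood in the upper 24.0% under the control diet and the upper 1.00% under RA, and RARα in the upper 85.0% and 16.9%. Inside Scarb1, the region at 54.8 kb showed the same order, with RXRα in the upper 0.332% and 0.894%, RARβ in the upper 42.4% and 3.55% and RARα in the upper 50.2% and 32.4%. The region at 67.1 kb, just past the gene, did not: RARβ stood in the upper 13.3% under the control diet and the upper 21.2% under RA, and RXRα in the upper 1.02% and 11.7%.

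The start of Scarb1 had another order. RARα stood there in the upper 2.92% and 5.31%, RARβ in the upper 16.2% and 68.0%, and RXRα in the upper 82.6% and 55.8%. Both RARs thus ranked lower at the start under RA, and RXRα ranked low under both diets, unlike the best peaks within 1 kb at Abca1 and Lcat.

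**Figure D3:**
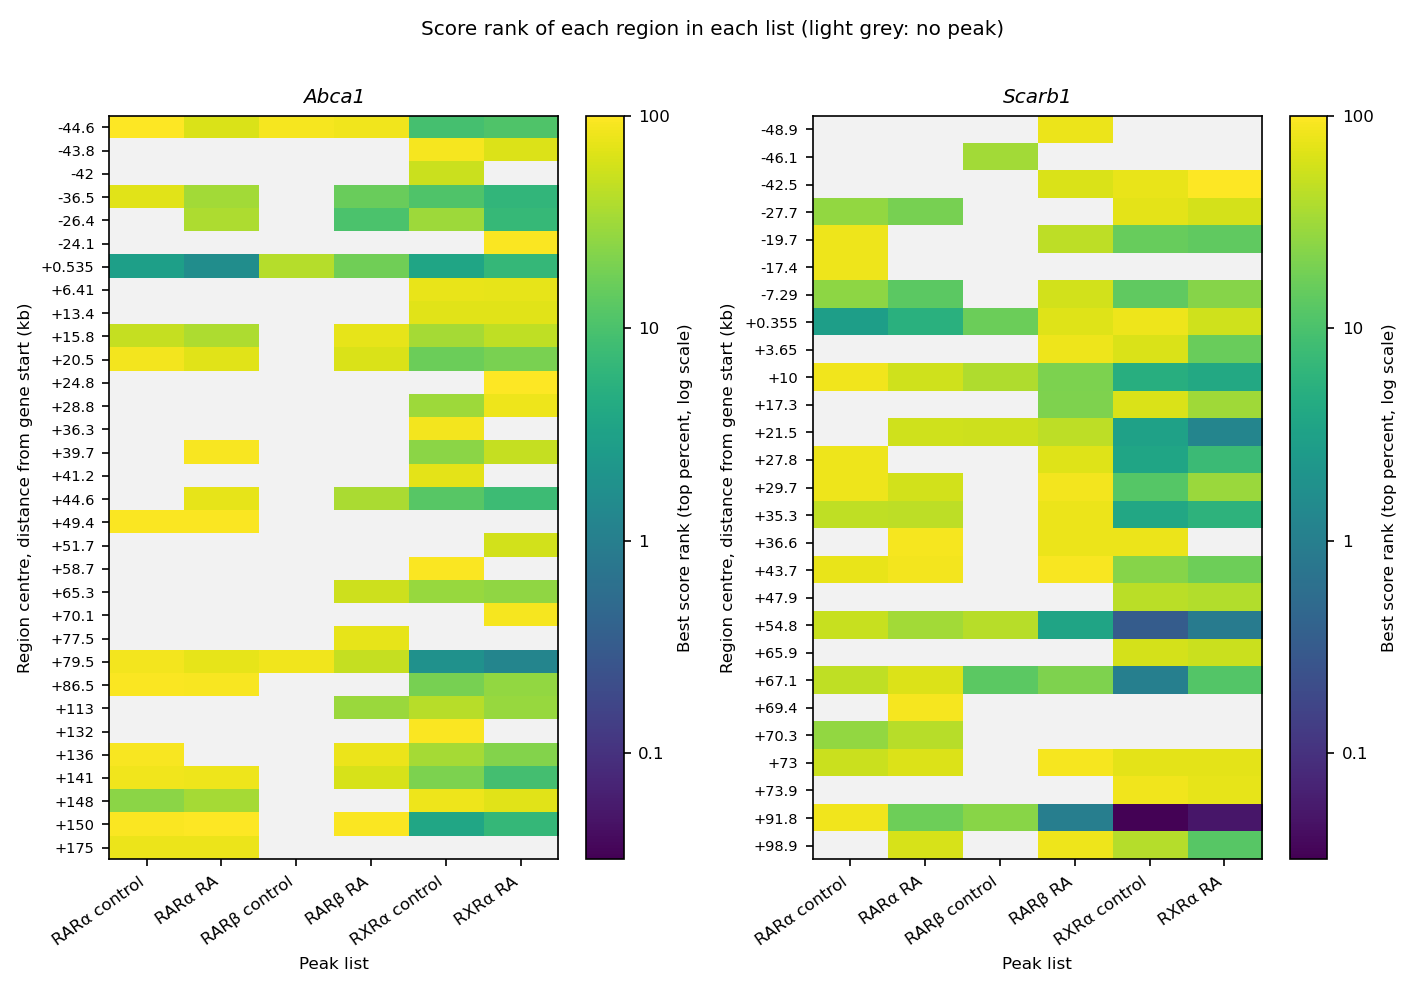
Rank of the best peak of each region (rows, by distance of the region centre from the gene start in kb) in the 6 lists (columns) at Abca1 and Scarb1, as the percent of peaks of the list with an equal or higher score (colour, log scale, darker for higher ranks, light grey where no peak was called). The darkest cells are the RXRα cells of the region at 91.8 kb of Scarb1 (0.0327% and 0.0520%), and the RARβ RA column is filled at more rows than the RARβ control column for both genes.

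**Figure D4:**
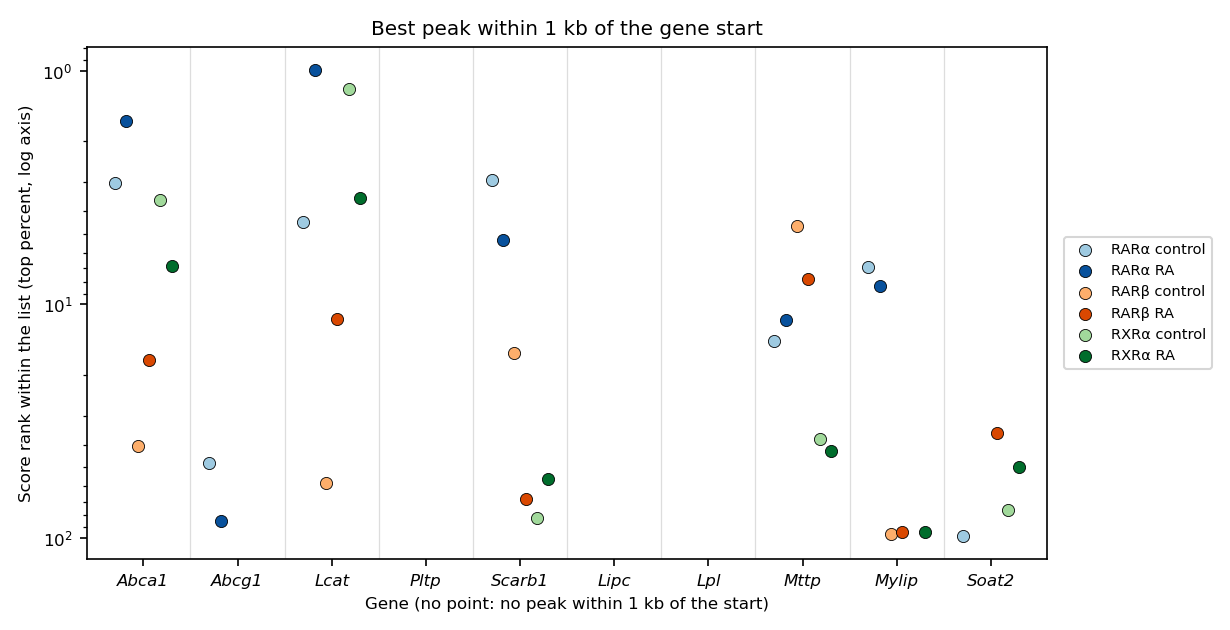
Rank of the best peak within 1 kb of the start of each gene, as the percent of peaks of the same list with an equal or higher score (log axis, highest ranks at the top), with 1 colour for each of the 6 lists and no point where no peak was called. The RARα RA point of Lcat is the highest (0.993%), those of Scarb1 spread from the upper 2.92% to the upper 82.6%, and Pltp, Lipc and Lpl have none.

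In lipoprotein assembly, Mttp, which loads triglyceride onto apolipoprotein B, lies at chr3:138089855-138143418 on the minus strand. The control lists held 4 RARα, 1 RARβ and 6 RXRα peaks for it, and the RA lists 3, 4 and 7. The region at its start was called in all 6 lists, and the start of Trmt10a on the other strand lies 0.744 kb from the centre of that region, so the peaks of Mttp and Trmt10a cannot be told apart. This region ranked highest for RARβ, in the upper 4.62% under the control diet and the upper 7.78% under RA, followed by RARα (14.3% and 11.7%) and RXRα (37.8% and 42.6%). It was the only region of Mttp with RARβ under the control diet. Inside the gene, at 12.1 kb, RXRα stood in the upper 12.1% and 8.29%, RARα in the upper 33.0% and 16.4%, and RARβ was called under RA only (upper 18.7%, score 178).

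Soat2, the acyltransferase that esterifies cholesterol for storage and secretion in hepatocytes, lies at chr15:102150415-102163469 on the plus strand. Its window held 4 other coding starts, with 10 RARα, 5 RARβ and 17 RXRα peaks on the control diet and 12, 9 and 18 with RA. Its start region was called in 4 lists, none above the upper 35.5% (RARβ RA). The highest ranks were again distal. At 36.0 kb, inside Csad and 17.1 kb from the start of Zfp740, RXRα stood in the upper 0.0818% and 0.122%, with RARβ in the upper 31.3% and 11.1% and RARα in the upper 66.4% and 44.3%. At -14.1 kb, 0.117 kb from the start of Spryd3, RARβ stood in the upper 1.16% and 0.431%, while RARα (64.3% and 57.5%) and RXRα (40.3% and 31.0%) ranked lower. Inside Soat2, the region at 2.39 kb held RXRα in the upper 7.59% and 13.9%, with RARα under the control diet only (upper 68.6%).

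Mylip encodes IDOL, a ubiquitin ligase that limits lipoprotein uptake, and lies at chr13:45389742-45411940 on the plus strand. RARα had 3 peaks there with either diet, RARβ 1 and 4, and RXRα 3 and 4, the fewest RXRα peaks of the 10 genes. At its start RARα stood in the upper 6.89% and 8.37%, RARβ in the upper 96.7% and 94.5%, and RXRα was called under RA only (upper 94.9%). A region at 1.99 kb held RXRα under both diets (upper 27.8% and 38.7%) and RARβ under RA (upper 51.5%), without RARα. The start of Mylip thus joined a high RARα rank with ranks near the end of the list for the other receptors where they were called.

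Across the 10 genes, the median number of peaks per 100 kb of window was 4.61 and 6.19 for RARα, 1.81 and 4.53 for RARβ and 8.95 and 8.08 for RXRα (control diet first, then RA). The medians over all coding genes were 2.66 and 3.07, 0.957 and 1.92, and 3.77 and 3.69. Between 7 and 9 of the 10 genes were above the all-gene median in each list. By distance to the nearest coding start, however, 45 of the 80 RARα control peaks, 16 of the 37 RARβ control peaks and 84 of the 138 RXRα control peaks belonged to the member rather than to a neighbour, as did 45 of 88, 44 of 78 and 87 of 138 under RA.

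Within 10 kb of their starts, 9 and 8 of the 10 genes had a RARα peak under the control diet and RA, 6 and 7 a RARβ peak, and 9 and 8 an RXRα peak. The corresponding shares of all coding genes were 61.9% and 63.3%, 44.1% and 54.7%, and 61.3% and 61.7%. All 6 lists had such a peak at 6 genes, Abca1, Lcat, Pltp, Scarb1, Mttp and Mylip, beside 38.2% of all coding genes. Lipc would be a further one from its inner start.

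Peaks within 1 kb of the start ranked above the remaining peaks of these genes in the RARα lists, with a median at the upper 6.89% against 54.6% under the control diet (7 and 73 peaks) and the upper 8.37% against 52.1% under RA (7 and 81 peaks). The start here was that of the member, and peaks at the starts of neighbours counted among the remaining peaks. Over all peaks of each list the split was made differently, by lying within 1 kb of any coding start. The medians were then 21.4% against 58.9% and 24.2% against 56.6%, so start peaks ranked high for RARα in general. For RARβ the medians were 40.4% against 47.8% and 26.4% against 56.0%, beside 32.0% against 63.0% and 32.3% against 56.6% over all peaks, split at any coding start. For RXRα the order was the opposite, 56.9% against 41.0% and 46.1% against 39.6%, and RXRα start peaks of all genes stood at the middle of their lists (51.7% and 48.8%). Of the 25 RXRα control peaks and 24 RXRα RA peaks of these genes in the upper 10% of their lists, 2 in each list were within 1 kb of the start of the member. For RARα these numbers were 4 of 9 and 4 of 7, and for RARβ 1 of 4 and 1 of 8. The other RARβ control peaks of this kind lay within 1 kb of neighbour starts, at Zswim3 (upper 0.808%), Zswim1 (4.30%) and Spryd3 (1.16%). Neighbour starts held such peaks in the other RAR lists too.

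The diets were compared by the number of peaks and by their overlap. For RARβ, 9 of the 10 genes had more peaks under RA, 0 had fewer and Lcat was equal, while 56.7% of all coding genes had more and 6.87% fewer. The ratio of RA to control peaks was 2.11 at these genes and 1.97 for the whole list. With the 6 lists shortened to the same number of top-scoring peaks, this ratio was 0.919. The shortening sets the whole-list ratio to 1.00, so it cannot show whether the number of peaks rose. It shows only how these genes stood to their lists. For RARα, 6 genes had more, 2 fewer (Lpl and Mttp) and 2 equal numbers, beside 47.9% more and 13.0% fewer of all coding genes, and the ratio was 1.10 (whole list 1.25), or 0.839 at equal list length. For RXRα, 6 genes had more and 4 fewer (Lcat, Pltp, Scarb1 and Lipc), beside 29.5% and 33.1% of all coding genes, with a ratio of 1.00 (whole list 0.975).

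Peaks of different lists were taken as shared where their overlap made up 25% or more of each peak's width. Of the RARα control peaks at these genes, 81.2% (Wilson 95% interval 71.3% to 88.3%, for counting error only) were shared with the RA list, and of the RARα RA peaks 75.0% (65.0% to 82.9%) with the control list. For RARβ these shares were 83.8% (68.9% to 92.3%) and 39.7% (29.6% to 50.8%), and those of RXRα 83.3% (76.2% to 88.6%) and 84.8% (77.9% to 89.8%). Over all peaks of each list they were 84.2% and 68.4% for RARα, 75.8% and 38.2% for RARβ, and 78.7% and 80.3% for RXRα. At equal list length the RARβ shares were 54.1% and 58.8%, and most RARβ RA peaks then had a counterpart. At Lcat, 1 of the 6 RARβ control peaks was shared, against 6 of 7 at Scarb1 and all of them at the other 8 genes. The Lcat control peaks at 0.781 kb (488 bp wide) and 6.34 kb (288 bp) lay inside RARβ RA peaks of 2250 bp and 1528 bp. They missed the 25% limit only because those RA peaks were wider.

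Peaks with no overlap at all in the other diet numbered 15 and 22 for RARα, 4 and 45 for RARβ, and 23 and 20 for RXRα. As shares of the peaks at these genes these were 18.8% and 25%, 10.8% and 57.7%, and 16.7% and 14.5%, beside 15.4% and 30.9%, 22.2% and 61.1%, and 20.7% and 19.3% of the whole lists. Of these peaks, 5 stood in the upper 25% of their list, all of them RARβ peaks under RA (6.41% of the 78, beside 7.38% of the whole list): Pltp at 67.0 kb, Abca1 at -26.3 kb (score 228) and -36.5 kb (score 192), Mttp at 12.1 kb, and Scarb1 at 17.3 kb (score 169, upper 21.0%). RXRα was called under both diets at each of these 5 places.

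The same relation was seen over regions. RARβ was called under RA and not under the control diet at 45 of the 176 regions (25.6%, against 19.8% of regions over the genome), under the control diet only at 3 (1.70%, against 3.60%) and under both at 32. Of the 45 regions, 38 (84.4%, interval 71.2% to 92.3%) had RXRα under both diets, 17 (37.8%) had RXRα and RARα under both, 13 (28.9%) had RXRα under both and no RARα, and 3 (6.67%) had no RXRα. Over the genome these shares were 83.3%, 33.9%, 24.9% and 7.62%, so the 10 genes were close to the genome in each. By gene, Scarb1 (13), Abca1 (11), Lipc and Soat2 (4 each) had the most of the 45 regions.

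RARβ peaks at these genes overlapped RXRα peaks of the same diet in 86.5% (72.0% to 94.1%) under the control diet and 91.0% (82.6% to 95.6%) under RA, beside 77.8% and 89.9% of all RARβ peaks. The control share was 56.8% where an overlap of 50% was required. RARα peaks did so in 77.5% (67.2% to 85.3%) and 76.1% (66.3% to 83.8%), beside 61.1% and 61.7%. At equal list length the RARα shares were 41.9% and 46.2%, and with scores of at least 100 the control share was 60.5%. RARβ peaks overlapped RARα peaks in 70.3% (54.2% to 82.5%) and 70.5% (59.6% to 79.5%), beside 74.2% and 72.1%, and in 43.2% and 38.2% at equal list length. Seen from RXRα, 23.2% of its peaks at these genes overlapped a RARβ peak under the control diet and 55.1% under RA, beside 19.0% and 44.8% of all RXRα peaks.

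All 6 lists were present at 23 regions (13.1%, against 9.75% over the genome), 1 list at 47 (26.7%, against 29.4%), RXRα alone at 58 (33.0%, against 36.3%) and no RXRα at 25 (14.2%, against 20.1%). Scarb1 had 5 of the 23, and Lpl and Mylip had none.

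Other genes of the same pathway were looked at from a list of 24. A peak within 10 kb of the start was found at 21 and 23 of them for RARα, 16 and 23 for RARβ and 23 and 23 for RXRα. All 6 lists had one at 15 genes, among them the sterol transporters Abcg5 and Abcg8, the apolipoprotein genes Apoa1, Apoa2, Apoa5, Apoc2, Apoc3 and Apom, the endocytic receptor gene Lrp1, the intracellular cholesterol handling genes Npc2 and Nceh1, and the regulators Srebf1, Nr1h2 and Nr1h3. The latter pair encodes the liver X receptors. Soat1, the more widely expressed relative of Soat2, had none in any list. These counts stand beside the shares of all coding genes given above. Apoa1 and Apoc3 lie side by side, as do Abcg5 and Abcg8, so they can share peaks.

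As a description of the labelled tissue, which binding alone does not settle, starts of marker genes were looked at in the same way. Of 6 hepatocyte genes, 3, 3, 2, 4, 6 and 6 had a peak within 10 kb in the RARα control, RARα RA, RARβ control, RARβ RA, RXRα control and RXRα RA lists. Of 4 Kupffer cell genes, 0 had one in any list, of 4 stellate cell genes at most 1, of 4 endothelial genes up to 4 (RARα RA), and of 4 genes of other tissues up to 2. Of all coding genes, between 44.1% (RARβ control) and 63.3% (RARα RA) had such a peak. These few marker genes therefore do not tell cell types apart.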

How the data were processed

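Livers of control and RA-fed mice were profiled by ChIP-seq with single-end reads of 35 bp. Per the study's methods, the authors aligned reads with Bowtie 0.12.7 to mm10 and called peaks with MACS 1.4.1 in each library (CASAVA 1.4 is in the submitters' processing notes). Each deposited file is 1 BED list with the caller's score per peak, not normalized between lists and never under 50, so scores were ranked within a list only, ties taking the last rank. Read depth is not in the lists, and list length may follow it. Groups came from the labels. The highest peak end on chromosome Y (90842021) lies beyond the last gene there in NCBIM37 (2552957), so no NCBIM37 coordinate was used.

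Gene spans came from RefSeq on GRCm38.p6. Strands came from the RefSeq promoter table (6 of the 10 genes) or by symbol from GENCODE M1 (4 genes), and 21536 of 21900 coding genes (98.3%) had one. Exons and introns were not analysed here. Promoter sequences were at hand for 6 of the 10 genes, and not for Abcg1, Scarb1, Lpl and Soat2. Half-sites AGGTCA and AGTTCA were searched as exact letters on both strands, and direct repeats with either half-site in either place and spacings of 0 to 8 bases.

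The genes and lists were chosen with earlier results of these data known. All 10 genes were named, with the highest-scoring peak of each list and the peaks without overlap in the other diet in the upper 25% of their list. Of the 24 pathway genes, those with a peak within 10 kb in all or none of the lists were named, except an item that is not reported here. Promoters were printed where peaks of all 6 lists overlapped the window or a direct repeat was held, plus the inner Lipc start. No test across genes was made. Alternatives were other windows, assignment by any overlap, a score of at least 100, lists cut to the shortest (14968 peaks), other overlaps and distances, other RefSeq starts and peaks nearest to the gene. Scripts (Python 3.11.15, numpy 2.4.6, pandas 2.3.3) were tested on simulated data.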

Additional observations from a re-analysis of the deposited data

Results flagged for a closer look

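At some of the 10 genes, 2 receptors differed in the sign of the change in peak number from the control diet to RA. None of these differences was tested, since each number comes from 1 library, and most are of 1 to 3 peaks. Given as RA minus control, the largest was at Scarb1, with 12 for RARβ (7 to 19 peaks) and -3 for RXRα (25 to 22 peaks). RARβ and RXRα also differed at Lipc (4 and -2) and Pltp (2 and -2). RARα and RXRα differed at Pltp (3 and -2), Lcat (2 and -2), Lipc (1 and -2), Lpl (-1 and 1) and Mttp (-1 and 1). RARα and RARβ differed at Mttp (-1 and 3) and Lpl (-1 and 1).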

How the results depend on the processing

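No paired analysis was possible because each group was 1 library. Of 138 values under alternatives for 27 results, 85 moved by less than the limit set for them, 51 moved and 2 turned direction. Peak numbers are given in the order RARα control, RARα RA, RARβ control, RARβ RA, RXRα control, RXRα RA. With 10 kb instead of 50 kb around the gene they were 44, 47, 17, 43, 78 and 76, inside the gene alone 28, 30, 12, 31, 62 and 61, and counting only peaks nearest to the start of the gene 45, 45, 16, 44, 84 and 87. A score of at least 100 left 43, 52, 13 and 34 RAR peaks, and lists of equal length left 31, 26, 34, 45 and 42 in the 5 lists longer than the RARβ control list. At equal length the RA to control ratio fell to 0.839 for RARα and 0.919 for RARβ, below 1, the value that equal length sets for the whole lists. Genes with a peak within 10 kb became 2 (RARβ control) and 4 (RARβ RA) with a score of at least 100. At equal length they became 4 (RARβ RA), 5 (RXRα control) and 5 (RXRα RA), and within 1 kb 5 (RXRα control). At equal length, the share of RARα control peaks in the RA list was 64.5%, of RARβ control peaks in the RA list 54.1% and of RARβ RA peaks in the control list 58.8%. At equal length, overlap with RXRα was 41.9% and 46.2% for RARα and 62.2% and 61.8% for RARβ (control and RA), and overlap of RARβ with RARα 43.2% and 38.2%. With a 50% overlap, 64.9% of RARβ control peaks and 72.5% of RXRα peaks of either diet were shared with the other diet, and 62.5% of RARα and 56.8% of RARβ control peaks with RXRα. With a score of at least 100, 90.7% of RARα control peaks were in the RA list, and 60.5% of RARα control and 97.1% of RARβ RA peaks overlapped RXRα. With the 10 kb window, 94.1% of RARβ control peaks overlapped RXRα. Assignment by any overlap and an overlap of 1 bp moved none. The alternatives with other RefSeq starts, which moved none, and with peaks nearest to the gene were chosen after seeing the data. The unknown depth of each library limits every comparison of numbers between lists, and with 1 library per group the spread between animals is not known.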
